A study of Mus musculus with 12 samples.

Results

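Long noncoding RNAs are transcripts, spliced or unspliced, that are polyadenylated like mRNAs or cleaved from long nuclear precursors, but are not translated into known proteins. The 10 described here, Meg3, Kcnq1ot1, Snhg11, Mir124a-1hg, Gm38609, Gm34755, A930013F10Rik, Malat1, Miat and Neat1, were all found among the 35976 gene symbols of a count table from mouse retina, of which 24484 had at least 1 read. They were chosen by name with their values in view, several of them because they changed in opposite directions in the 2 genotypes under oxygen-induced retinopathy (OIR). Their OIR differences in each genotype, and the difference between those differences, are therefore given as descriptions. No p-value is printed for them, and counts of those passing a threshold describe the choice. The 1 comparison tested for them is the difference between genotypes averaged over both treatments, whose weights are orthogonal to those of the contrasts that chose them. Since the groups differ in spread, this does not make it independent of the choice, and its p-values may carry a part of that choice.

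In OIR, pups breathe high oxygen while the retinal vessels are still growing, lose part of that vascular bed, and become hypoxic in the retina when they return to room air. Retinas gave 12 libraries in 4 groups, 3 for each pairing of a genotype label, WT or Casp1 KO, with normoxia or OIR, where Casp1 encodes the inflammatory protease caspase-1. The WT pups were C57BL/6 mice, and the OIR pups among them were kept in 75% oxygen from postnatal day 7 to 12 and then in room air for 3 days, so that retinas were taken at postnatal day 15, while their normoxia controls stayed at 21% oxygen. The labels give the same 3 days after OIR for the pups labelled Casp1 KO, whose age, oxygen level and knockout allele are not stated. Pups of both sexes were used, and the number of animals in a library is not given. Nothing says that the 3 libraries of a group came from separate animals. P-values here therefore rest on differences between these libraries, which may be technical. Those of the edgeR fits also draw on the spread of other genes, and can be smaller than an RNA's own spread would give.

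Total counts were 3391203 to 22815830 per library, and a count of 0 allowed a level of up to 0.131 to 0.885 CPM depending on that depth, limits that cover counting error only. CPM are counts scaled to a common library size by the TMM method, which corrects for compositional differences. Casp1 itself went against the labels, since the 6 WT libraries held 7 of its reads and the 6 Casp1 KO libraries 126, although a read outside a deleted part would not check the deletion. Genotype therefore means the label throughout, and genotype cannot be told apart from any batch that the labels do not give. WT OIR replicate 3 stood apart from the other libraries of its group over all genes, with the 10 RNAs among them. Its chi-square per degree of freedom against replicates 1 and 2 was 15.2 and 14.2, against 5.41 between replicates 1 and 2. The highest value within the other groups was 9.46, between WT normoxia replicates 1 and 2. The OIR differences of the 10 RNAs in WT are given with and without WT OIR replicate 3. As a check of the tissue label, the rod markers summed to 33918 to 41321 CPM over 6 genes in every library.

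Those of the 10 RNAs with a known role act mostly in the nucleus. Imprinted lncRNAs such as Meg3 and Kcnq1ot1 are expressed from 1 parental allele, and Kcnq1ot1 silences neighbouring genes on the chromosome that makes it. Host transcripts such as Snhg11 and Mir124a-1hg carry small RNAs that are cut out of them, among them miR-124, the abundant neuronal microRNA. Malat1 collects in nuclear speckles, which store splicing factors, Neat1 builds paraspeckles, and Miat forms separate foci in the nuclei of neurons.

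The libraries were made by the QuantSeq method, which primes on the poly(A) tail and reads the end of the transcript, so the ends of these RNAs are what the counts rest on. Levels therefore do not scale with transcript length and are compared here between libraries of 1 gene, not between genes. Of the 10 symbols, 7 are in the GENCODE vM21 annotation of GRCm38 (mm10) and 9 in the RefSeq table of GRCm38.p6, while Gm38609 is in neither. The last 60 bases of the longest annotated transcript are printed for the nuclear and imprinted RNAs because the reads are taken from these ends. Capitals mark the polyadenylation signals AATAAA and ATTAAA, searched on the transcript's own strand.
Meg3-209, chr12:109571667-109571726, plus strand: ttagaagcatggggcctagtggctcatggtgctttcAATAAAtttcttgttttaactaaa
Kcnq1ot1-201, chr7:143203458-143203517, minus strand: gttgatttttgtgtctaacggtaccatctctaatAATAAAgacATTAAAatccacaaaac
Mir124a-1hg-201, chr14:64593902-64593961, plus strand: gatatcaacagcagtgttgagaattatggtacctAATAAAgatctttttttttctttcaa
Malat1-201, chr19:5795690-5795749, minus strand: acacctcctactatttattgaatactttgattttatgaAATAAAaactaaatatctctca
Miat-205, chr5:112213228-112213287, minus strand: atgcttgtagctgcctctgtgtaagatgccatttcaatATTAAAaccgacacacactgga
Neat1-201, chr19:5824708-5824767, minus strand: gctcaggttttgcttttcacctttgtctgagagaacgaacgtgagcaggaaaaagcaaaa
Neat1-202, chr19:5842307-5842366, minus strand: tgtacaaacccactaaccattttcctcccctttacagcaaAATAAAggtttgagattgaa

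A signal begins 20 to 26 bases from the end in each of these transcripts except Neat1-201, the long form of Neat1 with 20771 bases, whose last 60 bases hold neither. The short form, Neat1-202 with 3004 bases, ends in a signal that begins 20 bases from its end, and is the form that polyadenylation makes. Kcnq1ot1-201 holds a second one, ATTAAA, 17 bases from its end. Among the longest transcripts of all 55115 annotated genes with at least 60 bases, 39.2% hold AATAAA or ATTAAA in the same window. Priming can also start on internal runs of A. Kcnq1ot1-201, a single exon of 93092 bases, holds 10 runs of at least 10 A, Meg3-209 holds 6 in its 14548 bases, Malat1-201 holds 1 and the longest transcripts of Snhg11, Mir124a-1hg, Miat and Neat1 hold 0. Reads cannot be assigned to an end or to an internal run from a count per gene. A signal near an annotated end does not by itself show that the RNA carries a poly(A) tail there.

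Meg3 is the maternally expressed lncRNA of the imprinted Dlk1-Dio3 domain and lies at chr12:109541001-109571726 on the plus strand, between the coding genes Dlk1 and Rtl1 and over the microRNA gene Mir770. It had 1544, 1549 and 1531 CPM in WT normoxia replicates 1, 2 and 3, and 2148, 2237 and 764 CPM in WT OIR. In Casp1 KO normoxia it had 2222, 2057 and 2159 CPM, and in Casp1 KO OIR 1117, 1113 and 1021 CPM. The 3 Casp1 KO OIR libraries were all below the 3 Casp1 KO normoxia libraries, while the WT OIR libraries lay on both sides of the WT normoxia libraries. On the log2 scale the OIR difference was -0.97 (SE 0.0634) in the libraries labelled Casp1 KO and 0.14 (SE 0.109) in those labelled WT, from edgeR's fit. That SE for WT was smaller than the spread of the libraries, from which the SE of the difference of mean log2 CPM was 0.507, and without WT OIR replicate 3 the WT difference was 0.50 (SE 0.0721).

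Kcnq1ot1, the paternally expressed antisense RNA that silences the Kcnq1 domain, lies at chr7:143203458-143296549 on the minus strand, within Kcnq1 on the opposite strand. Kcnq1 itself, a potassium channel gene, had 29 reads in the 12 libraries together and at most 10 in any of them. The strand setting of the counting is not given, so that reads of the pair cannot be told apart. Kcnq1ot1 had 134, 128 and 131 CPM in WT normoxia, 236, 282 and 144 CPM in WT OIR, 249, 232 and 252 CPM in Casp1 KO normoxia and 127, 121 and 135 CPM in Casp1 KO OIR. The WT OIR libraries were all above the WT normoxia libraries, and the Casp1 KO OIR libraries were all below the Casp1 KO normoxia libraries. The log2 difference was 0.74 (SE 0.136) in WT and -0.93 (SE 0.0983) in Casp1 KO, and the WT value was 0.97 without WT OIR replicate 3. By group mean, Casp1 KO normoxia (245 ± 10.7 CPM, SD, n = 3) and WT OIR (221 ± 70.4) were the higher pair and overlapped, and WT normoxia (131 ± 2.91) and Casp1 KO OIR (128 ± 6.92) were the lower pair and overlapped too.

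Snhg11 is a host gene of small nucleolar RNAs that is expressed in neurons, and lies at chr2:158375638-158386145 on the plus strand, where GENCODE gives it as protein coding and RefSeq as lncRNA. It had 240, 270 and 237 CPM in WT normoxia, 409, 442 and 134 CPM in WT OIR, 363, 350 and 341 CPM in Casp1 KO normoxia and 210, 238 and 201 CPM in Casp1 KO OIR. As for Meg3, WT OIR replicates 1 and 2 were above all WT normoxia libraries and replicate 3 was below them. The log2 OIR difference was -0.69 (SE 0.0878) in Casp1 KO and 0.38 (SE 0.127) in WT, where the SE from the spread of the libraries was 0.560 and the value without WT OIR replicate 3 was 0.76.

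Mir124a-1hg is the host transcript of Mir124a-1, also known in retina as Rncr3, and lies at chr14:64587331-64593961 on the plus strand. It had 321, 330 and 331 CPM in WT normoxia, 644, 729 and 314 CPM in WT OIR, 484, 426 and 479 CPM in Casp1 KO normoxia and 412, 405 and 377 CPM in Casp1 KO OIR. WT OIR replicates 1 and 2 were the highest of the 12 libraries and replicate 3 the lowest. In Casp1 KO the OIR libraries were below the normoxia libraries by a small step, a log2 difference of -0.21 (SE 0.0796), against 0.77 (SE 0.122) in WT and 1.06 in WT without WT OIR replicate 3. Unlike Meg3, Kcnq1ot1 and Snhg11, its Casp1 KO OIR libraries were all above the WT normoxia libraries.

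Malat1 lies at chr19:5795690-5802672 on the minus strand as a single exon of 6983 bases, and Neat1 lies upstream of it on the same strand, 22035 bases apart. Malat1 had 8201, 7891 and 8452 CPM in WT normoxia, 9307, 10552 and 4911 CPM in WT OIR, 9086, 8340 and 8122 CPM in Casp1 KO normoxia and 6031, 5244 and 5900 CPM in Casp1 KO OIR. The Casp1 KO OIR libraries and WT OIR replicate 3 were lower than the other 8 libraries. The log2 OIR difference was -0.56 (SE 0.0498) in Casp1 KO and 0.00 (SE 0.0956) in WT, with 0.27 without WT OIR replicate 3.

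Neat1, at chr19:5824708-5845478, had few reads, 14 to 209 per library. It had 3.20, 9.30 and 7.83 CPM in WT normoxia, 22.5, 17.7 and 4.72 CPM in WT OIR, 5.47, 4.07 and 4.83 CPM in Casp1 KO normoxia and 5.11, 5.26 and 9.05 CPM in Casp1 KO OIR. WT OIR replicates 1 and 2 were the 2 highest of the 12 libraries, and all 4 groups overlapped in each pair. The log2 OIR difference was 1.08 (SE 0.350) in WT, with 1.51 without WT OIR replicate 3, and 0.44 (SE 0.474) in Casp1 KO, so that Neat1 was the member whose fitted difference was above 0 in both. Neat1 and Malat1, neighbours on the chromosome, differed in Casp1 KO OIR, where Malat1 was lower than in normoxia and Neat1 had 0.44 with an SE larger than that value.

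Miat, known as Gomafu, lies at chr5:112213228-112229395 on the minus strand and had 18 to 255 reads per library. It had 15.3, 11.3 and 3.91 CPM in WT normoxia, 12.5, 13.8 and 3.998 CPM in WT OIR, 13.5, 12.5 and 17.4 CPM in Casp1 KO normoxia and 8.004, 4.82 and 9.26 CPM in Casp1 KO OIR. Both WT groups and Casp1 KO OIR each held a library under 5 CPM, and the Casp1 KO OIR libraries were all below the Casp1 KO normoxia libraries. The log2 OIR difference was -0.96 (SE 0.342) in Casp1 KO and -0.05 (SE 0.355) in WT, with 0.34 without WT OIR replicate 3.

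The remaining 3 RNAs have no known role. Gm38609 had 17.4, 16.6 and 13.9 CPM in WT normoxia, 29.6, 51.2 and 34.0 CPM in WT OIR, 44.9, 53.5 and 56.99 CPM in Casp1 KO normoxia and 36.0, 25.2 and 23.9 CPM in Casp1 KO OIR. WT normoxia was below the other 9 libraries without overlap. Its log2 OIR difference was 1.25 (SE 0.232) in WT and -0.85 (SE 0.181) in Casp1 KO, and leaving out WT OIR replicate 3 gave 1.33 in WT.

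A930013F10Rik, which RefSeq places at chr8:22634371-22636809 and which overlaps Polb, the gene of DNA polymerase beta, had 35.9, 52.9 and 50.9 CPM in WT normoxia and 112, 109 and 66.0 CPM in WT OIR. It had 70.0, 54.3 and 61.6 CPM in Casp1 KO normoxia and 45.6, 37.7 and 47.1 CPM in Casp1 KO OIR. The OIR libraries were above normoxia in WT and below normoxia in Casp1 KO, each without overlap, with log2 differences of 1.02 (SE 0.164) and -0.50 (SE 0.158), and 1.22 in WT without WT OIR replicate 3. Reads of Polb could be counted on it or the reverse.

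Gm34755, which RefSeq places at chr6:128798709-128805831 between the natural killer cell receptor genes Klrb1c and Klrb1b, went the other way from A930013F10Rik in WT and the same way in Casp1 KO. It overlaps Gm44511, whose reads could be counted on it or the reverse. Gm34755 had 47.6, 46.5 and 34.1 CPM in WT normoxia and 11.02, 7.92 and 7.09 CPM in WT OIR, with 22.1, 14.8 and 11.4 CPM in Casp1 KO normoxia and 10.01, 11.6 and 8.64 CPM in Casp1 KO OIR. WT normoxia was above the other 9 libraries without overlap. The log2 OIR difference was -2.33 (SE 0.253) in WT, -2.21 in WT without WT OIR replicate 3 and -0.67 (SE 0.309) in Casp1 KO. The summed level of 3 oligodendrocyte markers, Mbp, Mobp and Mog, was likewise 117 to 137 CPM in WT normoxia and 18.6 to 29.6 CPM in the other 9 libraries. Of these markers, 3 of 3 had reads and 1 was above the limit of a count of 0 in every library, and their part in the Gm34755 difference was not tested. In a bulk sample, fewer cells of a type and less RNA per cell cannot be told apart.

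**Figure D1:**
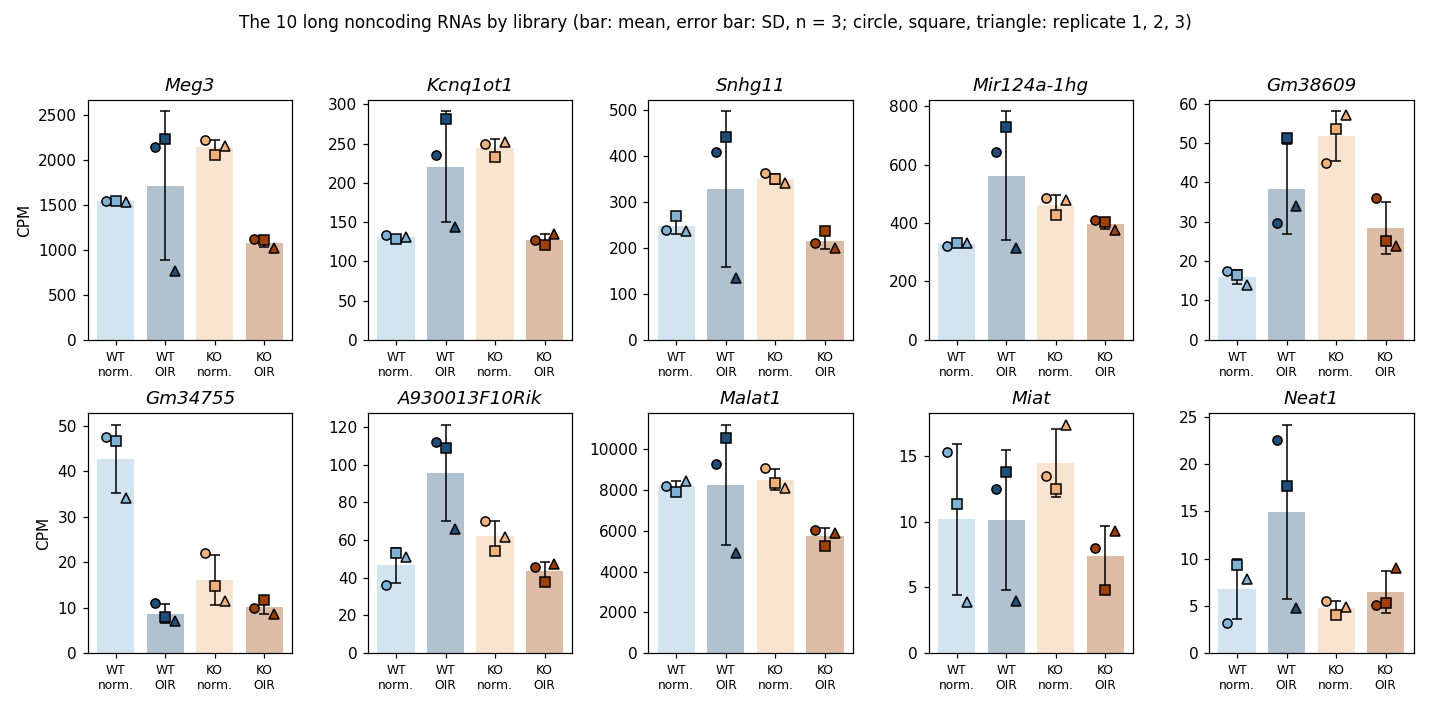
CPM (y axis, linear, TMM scale) of the 10 RNAs in the 4 groups (x axis; KO is the label Casp1 KO, norm. is normoxia), with bars for the mean of 3 libraries, error bars for the SD, and a circle, square and triangle for replicates 1, 2 and 3. The triangle of WT OIR is far below the circle and square for Meg3, Snhg11, Mir124a-1hg, Malat1, Miat and Neat1, while Gm34755 is highest in WT normoxia.

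With these values, edgeR's quasi-likelihood test at an adjusted p of 0.05 called 5 of the 10 in WT OIR, 4 higher (Kcnq1ot1, Mir124a-1hg, Gm38609 and A930013F10Rik) and 1 lower (Gm34755), where 1.58% of the 22853 genes tested were called higher and 2.29% lower. In the libraries labelled Casp1 KO it called 0 higher and 6 lower (Meg3, Kcnq1ot1, Snhg11, Gm38609, A930013F10Rik and Malat1), where 2.61% of 22387 genes were higher and 2.03% lower. The difference between the OIR differences was called for 8, of which 7 were lower in Casp1 KO and 1, Gm34755, was higher, where 0.527% and 0.604% of 24484 genes were called. The rule that chose the RNAs used these contrasts, so the counts describe the choice. The median log2 difference over the 10 was 0.56 in WT, -0.68 in Casp1 KO and -1.05 for the difference of differences, beside 0.037, -0.00195 and -0.039 over all genes. Without WT OIR replicate 3 the counts were 9 in WT OIR and 8 for the difference of differences, with medians of 0.87 and -1.39, while calls over all genes rose from 886 to 1130 and from 277 to 597. With DESeq2 the 5 in WT OIR became 4, without Mir124a-1hg, the 6 in Casp1 KO OIR stayed 6, with Mir124a-1hg in place of A930013F10Rik, and the 8 became 4, Kcnq1ot1, Gm38609, Gm34755 and A930013F10Rik, while the log2 values of Meg3 (-1.15), Snhg11 (-1.10), Mir124a-1hg (-1.005) and Malat1 (-0.59) stayed close to those of edgeR.

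**Figure D2:**
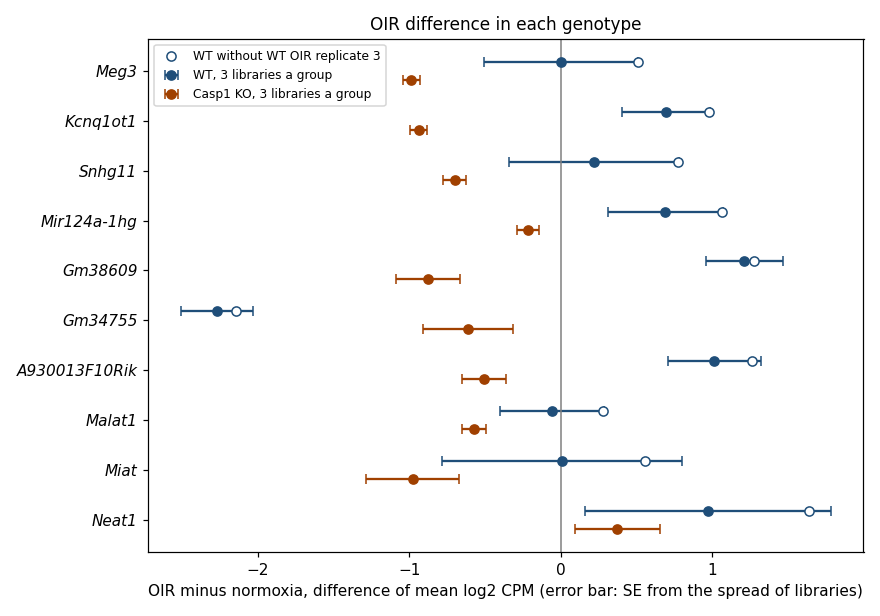
Difference of mean log2 CPM between OIR and normoxia (x axis) for each RNA (y axis) in the libraries labelled WT (blue) and Casp1 KO (brown), with error bars for the SE computed from the spread of the 3 libraries of each group, and open circles for WT without WT OIR replicate 3. In WT the error bars of Meg3, Snhg11, Malat1 and Miat cross 0, and the open circle is to the right of the filled one for all 10.

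The SE that follow from the spread of the libraries were larger than those of the fit for 9 of the 10 in WT, up to 4.66 times for Meg3, and for 2 of the 10 in Casp1 KO, up to 1.59 times for Malat1. In these units the OIR difference of Meg3 was 0.0016 (SE 0.507) in WT and -0.99 (SE 0.0536) in Casp1 KO. For Kcnq1ot1 it was 0.69 (SE 0.291) in WT and -0.94 (SE 0.0583) in Casp1 KO. The spread of Miat in WT gave an SE of 0.791 and that of Neat1 0.812, so that neither had a resolved WT difference.

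WT OIR replicate 3 was low for most of the RNAs. Against the mean of WT OIR replicates 1 and 2, its level was 0.235 for Neat1, 0.304 for Miat, 0.314 for Snhg11, 0.349 for Meg3, 0.457 for Mir124a-1hg, 0.495 for Malat1, 0.555 for Kcnq1ot1 and 0.598 for A930013F10Rik. Gm34755 (0.749) and Gm38609 (0.841) were nearer to the other genes, with 15.9% and 26.4% of genes at a lower ratio, and Gm38609 was higher in replicate 3 than in replicate 1. Over the 9428 genes with a mean of at least 10 CPM the median ratio was 0.998, with 0.592 and 1.64 as the 5th and 95th percentiles, so that 7 of the 10 were under the 5th percentile. The 10 RNAs took 0.621% of its reads, against 1.30% and 1.49% in WT OIR replicates 1 and 2, 1.01% to 1.08% in WT normoxia, 1.15% to 1.25% in Casp1 KO normoxia and 0.718% to 0.799% in Casp1 KO OIR. Most of that share is Malat1.

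**Figure D3:**
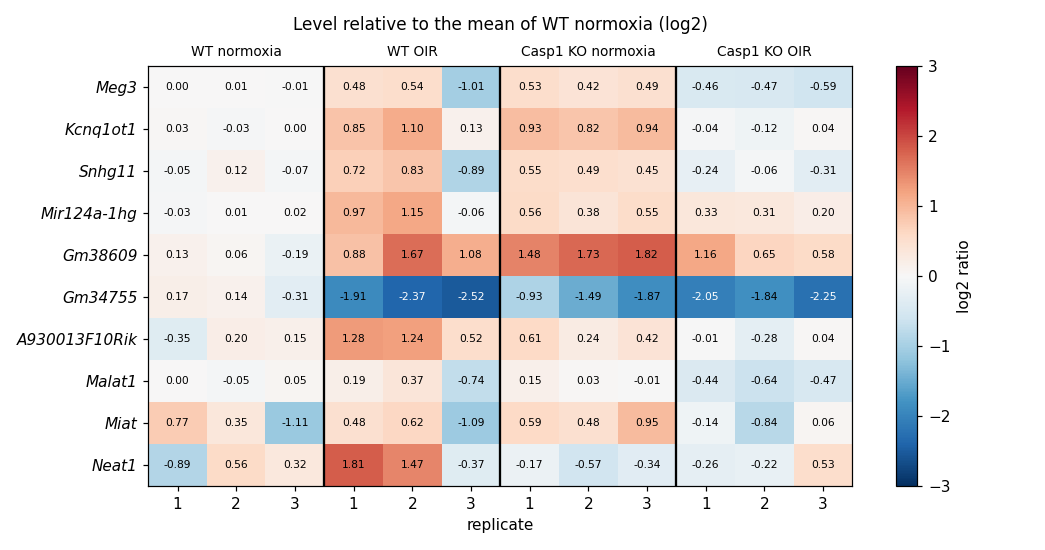
Level of each RNA (rows) in each of the 12 libraries (columns, 3 replicates per group) as log2 ratio to the mean log2 CPM of WT normoxia, red for higher and blue for lower. WT OIR replicates 1 and 2 and the Casp1 KO normoxia libraries are red for Meg3, Kcnq1ot1 and Snhg11, and WT OIR replicate 3 has -1.01 for Meg3 and -0.89 for Snhg11.

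The comparison not named in the choice, Casp1 KO minus WT averaged over normoxia and OIR, called 2 of the 10. Of 24484 genes, 0.216% were called higher and 0.261% lower. The RNAs were chosen with their values in view, so the p-values may carry a part of that choice. Averaged over both treatments, Gm38609 was higher by 0.62 on the log2 scale (SE 0.145, adjusted p = 0.00673, edgeR's quasi-likelihood test). Malat1 was lower by 0.24 (SE 0.0529, adjusted p = 0.00389, edgeR's quasi-likelihood test). Gm38609 had group means of 51.8 CPM in Casp1 KO normoxia and 15.97 CPM in WT normoxia, without overlap. In OIR its group means were 28.4 CPM in Casp1 KO and 38.3 CPM in WT, with overlap. Malat1 had 8516 and 8182 CPM in Casp1 KO and WT normoxia, and 5725 and 8257 CPM in OIR, with overlap in both. These averages therefore stand for no difference shared by both treatments. A two-sided exact permutation test of mean log2 CPM permuted the genotype labels within each treatment over 400 assignments. It can reach 0.005 at the smallest. Where the genotype difference has opposite signs in the 2 treatments, as for Gm38609 and Malat1, swapping the labels in 1 treatment gives a larger average. The test is then weak, so it does not decide whether the 2 calls hold. This exact test gave p = 0.1 for Gm38609 and p = 0.38 for Malat1, and p from 0.105 to 0.925 for the other 8. The SE from the spread of the libraries was 0.176 for Malat1 around a difference of mean log2 CPM of -0.20, and 0.165 for Gm38609 around 0.63. For 9 of the 10 it was larger than the SE of the fit, up to 4.08 times for Meg3. The p-values of edgeR therefore do not measure that spread. The count of 2 fell to 0 with a filter on low counts (either filterByExpr or a minimum of 10 reads per library), when calls over all genes fell from 117 to 38 and 35. It rose to 7 without WT OIR replicate 3, when calls over all genes rose to 544, with Malat1 at -0.37, Meg3 at -0.27, Snhg11 at -0.24, Neat1 at -1.07, A930013F10Rik at -0.47, Gm34755 at -0.65 and Gm38609 at 0.58. The other fitted differences were -0.86 (SE 0.287) for Neat1, -0.59 (SE 0.192) for Gm34755, -0.36 (SE 0.113) for A930013F10Rik and between -0.09 and 0.06 for Meg3, Snhg11, Mir124a-1hg, Miat and Kcnq1ot1.

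Among the members themselves, Meg3 and Snhg11 were the closest pair over the 12 libraries, with a root mean square difference of centred log2 CPM of 0.147. Meg3 and Malat1 followed with 0.224, and Gm38609 and Gm34755 were the farthest apart with 1.44. Of 9419 other genes with a mean of at least 10 CPM, the 5 whose pattern was closest to Kcnq1ot1 were Rpgrip1 (0.181), Pnisr (0.216), Lekr1 (0.224), Ccdc39 (0.228) and LOC108168210 (0.232). Rpgrip1, a protein of the photoreceptor connecting cilium, had 523 ± 23.97 CPM (SD, n = 3) in WT normoxia, 758 ± 147 in WT OIR, 769 ± 35.1 in Casp1 KO normoxia and 476 ± 48.3 in Casp1 KO OIR. Pnisr encodes a nuclear protein with serine and arginine rich repeats, and had 339 ± 8.65, 449 ± 145, 444 ± 41.1 and 302 ± 6.53 CPM in the same order. The 5 closest to Meg3 were BC030499 (0.172), Ttc14 (0.183), LOC108168210 (0.222), Ankrd24 (0.224) and Ptprb (0.237). Ttc14 had 122 ± 3.67, 161 ± 86.8, 152 ± 5.59 and 86.1 ± 16.7 CPM. All of these points share the same 12 libraries.

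The genes around the imprinted RNAs are given beside them. In the Dlk1-Dio3 domain, Rian and Mirg are noncoding transcripts of the same maternal allele and orientation as Meg3. Mirg had 14.8 ± 2.18 CPM in WT normoxia, 8.34 ± 3.60 in WT OIR, 13.5 ± 1.54 in Casp1 KO normoxia and 8.15 ± 5.26 in Casp1 KO OIR. Rian had 8.18 ± 4.48, 3.50 ± 0.922, 5.57 ± 1.83 and 5.99 ± 3.17 CPM, and Dio3, a deiodinase gene at the other end of the domain, 1.38 ± 0.382, 3.15 ± 1.19, 1.43 ± 1.001 and 3.79 ± 2.12 CPM. Of the 5 genes of the domain, edgeR called 0 in each of the 4 comparisons, with 0 to 2 at an unadjusted p under 0.05 and 0 with DESeq2. Of the Kcnq1 domain, 8 of 10 genes had reads, and edgeR called 1 of them, higher in Casp1 KO OIR, beside 2.61% of all genes tested. In the other comparisons edgeR called 0 of them, 0 to 3 had an unadjusted p under 0.05 and DESeq2 called 0. Cdkn1c, a cell cycle inhibitor gene next to Kcnq1ot1, had 71.1 ± 11.4, 93.2 ± 19.999, 83.2 ± 11.1 and 96.8 ± 2.86 CPM in the 4 groups in the same order, Cd81, a tetraspanin gene, had 158 ± 22.5, 168 ± 13.1, 144 ± 10.8 and 185 ± 9.96, and Nap1l4, a nucleosome assembly factor gene, had 143 ± 9.72, 153 ± 16.6, 156 ± 3.93 and 147 ± 9.31.

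Other nuclear-enriched lncRNAs were counted as a list. Of 14 measured, Snhg14 (-0.52) and Six3os1 (-0.49) were lower in Casp1 KO OIR and Peg13 (0.33) and Jpx (1.28) were higher by edgeR. Over all genes tested, 2.03% were called lower in Casp1 KO OIR and 2.61% higher. For the difference of OIR differences, edgeR called 0 of the 14, 2 had an unadjusted p under 0.05, and DESeq2 called 0, with a median of -0.19. Peg13, the highest of the list, had 155 ± 27.4, 162 ± 12.01, 128 ± 13.97 and 160 ± 16.9 CPM in the 4 groups in the same order, and Six3os1 had 87.9 ± 8.40, 66.8 ± 3.94, 83.7 ± 8.91 and 58.95 ± 4.05 CPM. Snhg14, an imprinted neuronal transcript, had 58.4 ± 6.80, 55.4 ± 3.35, 72.6 ± 6.69 and 50.3 ± 4.87 CPM. Of 16 host genes of small nucleolar RNAs other than Snhg11, edgeR called 0 in WT OIR, with 1 at an unadjusted p under 0.05 and 0 with DESeq2, and Snhg3 (-0.84) in Casp1 KO OIR. It also called Snhg20 lower for Casp1 KO minus WT (-0.53, adjusted p = 0.000155) and for the difference of OIR differences (-0.77, adjusted p = 0.0214). DESeq2 called 0 of the 16 in each of these 3 comparisons. Without WT OIR replicate 3 edgeR called 2 of the 16 in WT OIR and 3 for the difference of OIR differences. Gas5, the host gene with the highest level in the list, had 286 ± 15.8, 281 ± 27.2, 284 ± 22.2 and 267 ± 19.7 CPM. The next, Snhg9 and Snhg8, had group means of 113 to 146 and of 95.3 to 125 CPM.

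The mRNAs known to be held in the nucleus with unspliced introns were also counted. Of 16 such genes, 6 were lower in Casp1 KO OIR, among them Clk1 (-0.60), a kinase of splicing factors, Luc7l3 (-0.50), a splicing factor, and Pnisr (-0.54). In WT OIR 2 were higher, Srsf5 (0.50) and Pnisr (0.40). Over all genes tested, 2.03% were called lower in Casp1 KO OIR, 1.58% higher in WT OIR and 0.527% lower for the difference of OIR differences. The list was written with earlier results of these data known, so its counts are descriptions. For the difference of OIR differences 15 of the 16 were below 0, with a median of -0.41 beside -0.039 over all genes, and edgeR called 4 of them lower (Luc7l3, Srsf5, Nktr and Pnisr), of which DESeq2 called 0. Genes of cytoplasmic ribosomal proteins, whose mRNAs are mostly cytoplasmic, lay mostly below 0 for that difference, 65 of 84 with a median of -0.20, of which edgeR called 0, 21 had an unadjusted p under 0.05 and DESeq2 called 0. In WT OIR their median log2 ratio to WT normoxia was -0.078 and -0.056 in replicates 1 and 2 and 0.37 in replicate 3. It was 0.058 to 0.12 in Casp1 KO normoxia and -0.020 to 0.022 in Casp1 KO OIR. Without WT OIR replicate 3 edgeR called 3 of the 84 for the difference. In Casp1 KO OIR edgeR called 7 of those 84 lower and 2 higher. Without WT OIR replicate 3 edgeR called 9 of the 16 genes with detained introns in WT OIR and 8 for the difference. Their median log2 ratio to WT normoxia was 0.39 and 0.39 in WT OIR replicates 1 and 2 and -0.28 in replicate 3, -0.018 to 0.053 in Casp1 KO normoxia and -0.18 to -0.15 in Casp1 KO OIR. For the 10 lncRNAs it was 0.78, 0.97 and -0.55 in WT OIR, 0.40 to 0.55 in Casp1 KO normoxia and -0.25 to 0.037 in Casp1 KO OIR. Luc7l3 had 1038 ± 26.7, 1108 ± 470, 984 ± 29.03 and 688 ± 36.4 CPM, Rbm39 957 ± 3.55, 941 ± 125, 897 ± 7.98 and 728 ± 13.9 CPM, and Ddx5 group means of 829 to 935 CPM.

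Genes for proteins of the nuclear bodies that hold Malat1 and Neat1 were counted too. Of 10 nuclear speckle protein genes, 4 were lower in Casp1 KO OIR by edgeR: Son (-0.25), Sf3b1 (-0.27), Rbm25 (-0.42) and Pnn (-0.45), beside 2.03% of all genes tested. With all libraries, edgeR called 0 in WT OIR, where 0 had an unadjusted p under 0.05 and DESeq2 called 0. Without WT OIR replicate 3 edgeR called 3 of the 10 in WT OIR. For the difference of OIR differences it then called 4, against 1 with all libraries. In WT OIR their median log2 ratio to WT normoxia was 0.22 and 0.21 in replicates 1 and 2 and -0.19 in replicate 3. Son, a scaffold of speckles, had 1024 ± 8.84, 1117 ± 191, 1022 ± 18.6 and 854 ± 29.2 CPM in the 4 groups, and the group means of Srrm2 and Rbm25, also of speckles, were 820 to 957 and 409 to 552 CPM. Sfpq, which encodes a core protein of paraspeckles, had 378 ± 6.31, 390 ± 47.3, 312 ± 18.6 and 321 ± 4.91 CPM, and Hnrnpk, of the same bodies, had group means of 337 to 365 CPM.

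Cytoplasmic and mitochondrial RNA are given beside the nuclear RNAs because WT OIR replicate 3 differed from replicates 1 and 2 in both. Genes of cytoplasmic ribosomal proteins took 2.82% of its reads, against 2.14% and 2.21% in WT OIR replicates 1 and 2 and 2.09% to 2.41% in the other 9 libraries. Their median log2 ratio to WT normoxia was 0.37 in it, against -0.078 and -0.056 in replicates 1 and 2. The 3 highest of these genes, Rps14, Rplp1 and Rps21, had group means of 1670 to 2360, 1166 to 1373 and 828 to 879 CPM. Mitochondrially encoded transcripts took 2.42% of its reads, against 1.98% and 2.05%, and 2.46% to 2.59% in WT normoxia. Of the mitochondrial transcripts, 3 of 10 were lower in WT OIR and 5 of 12 in Casp1 KO OIR, beside 2.29% and 2.03% of all genes tested. The highest, ND2, ND4 and ND1, had group means of 4377 to 6098, 4676 to 5963 and 3812 to 5372 CPM. The share of nuclear RNA in a library was not measured, and its part in the differences of the 10 lncRNAs was not tested.

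**Figure D4:**
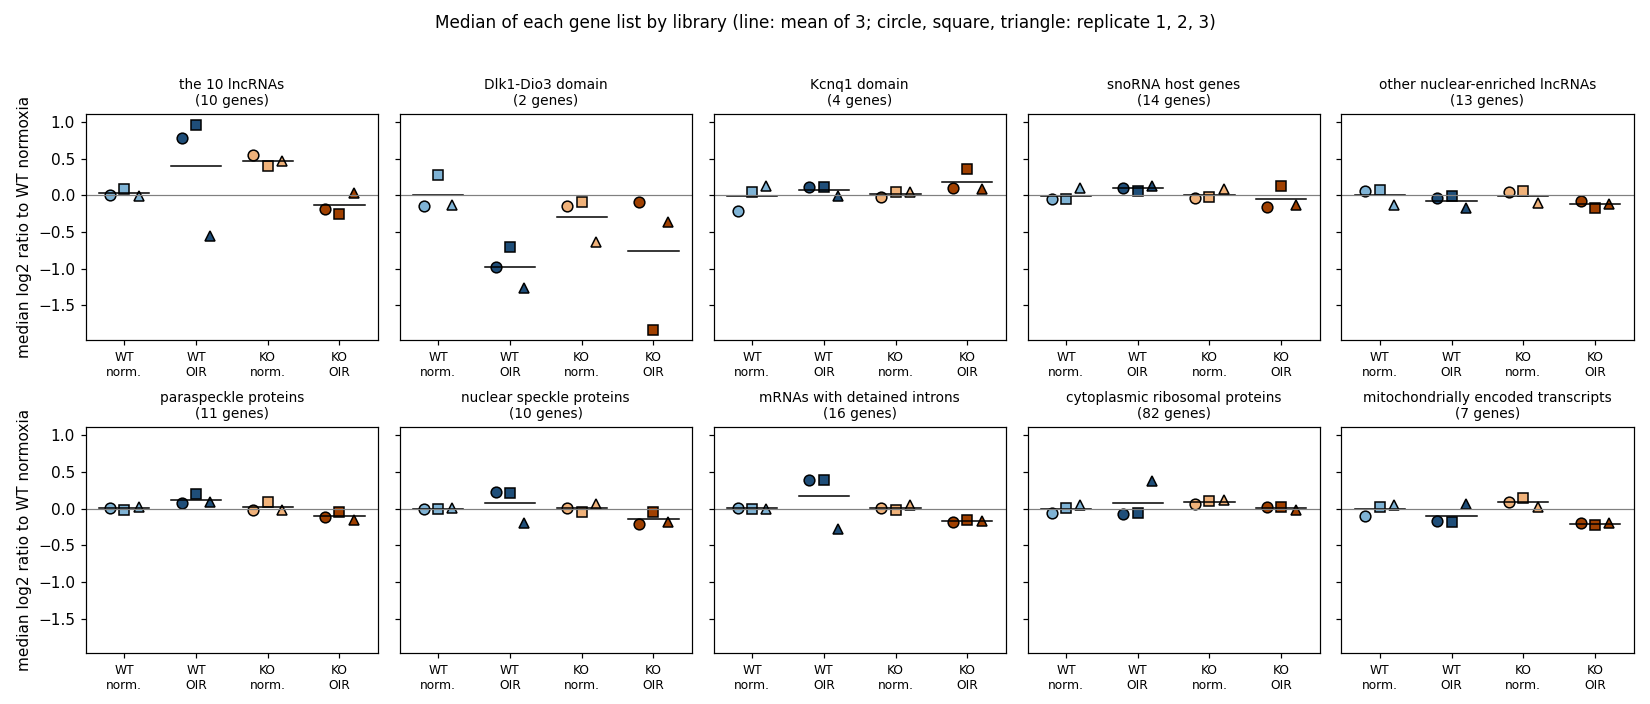
Median over the genes of each list (panel title, with the number of its genes at a mean of at least 5 CPM) of the log2 ratio to the mean of WT normoxia (y axis), by group (x axis), with a line for the mean of 3 libraries and a circle, square and triangle for replicates 1, 2 and 3. The 10 lncRNAs have 0.78, 0.97 and -0.55 in WT OIR, and the mRNAs with detained introns 0.39, 0.39 and -0.28, while ribosomal protein genes have 0.37 in WT OIR replicate 3.

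The summed levels of cell type markers varied between the groups. The 6 retinal ganglion cell markers summed to 1802 to 1996 CPM in WT normoxia, 966 to 1184 in WT OIR, 2026 to 2180 in Casp1 KO normoxia and 1182 to 1190 in Casp1 KO OIR. The 6 Muller glia markers summed to 1817 to 1935, 1397 to 1423, 1272 to 1431 and 1866 to 1892 CPM in the same order, and the 6 amacrine markers to 565 to 611, 364 to 454, 429 to 484 and 464 to 516 CPM. Retinal pigment epithelium markers were highest in Casp1 KO OIR (908 to 988 CPM, against 543 to 674 in the other groups), and lens markers too (349 to 420 CPM, against 143 to 321). Single genes took much of some sums, which then need not follow the cell type. Among ganglion cell markers, Nefl had 591 to 1493 CPM over the libraries and Sncg, the next, at most 223 CPM. Glul of the Muller glia markers had 642 to 1172 CPM, and Ttr of the retinal pigment epithelium markers 414 to 763 CPM. The part of these cell types in the differences of the 10 lncRNAs was not tested.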

How the data were processed

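RNA was extracted with TRIzol from 12 retinal samples, and QuantSeq FWD libraries were sequenced as 75-base reads. Per the labels, the authors aligned reads to mm10 with STAR 2.7.5a, and deposited raw HTSeq 0.6.1 counts per gene symbol, without normalization. The annotation, strand setting and treatment of reads matching several places are not given in the sources used here. Groups came from the labels.

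Here edgeR 4.0.16 in R 4.3.3 was used with TMM, genes with at least 1 count, quasi-likelihood tests (the older method) and adjustment by Benjamini-Hochberg over all genes. Each OIR comparison used its own 6 libraries, the others all 12. Per-library log2 CPM used a prior count of 2. Alternatives were DESeq2 1.42.0 and its size factors, library size alone, 2 filters on low counts, the newer quasi-likelihood method, a joint fit, a replicate block and each library left out. The fits were run on simulated data with the same dispersion for every gene and no deviating library. That run does not cover a library that stands apart from its group. Same-numbered libraries did not deviate together (correlations -0.060 to 0.085).

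Members and lists were chosen with earlier results of these data known. Mitochondrial transcripts were matched by symbols such as ND1. Named beside the members are the 3 highest genes of each list and the 5 genes closest to Kcnq1ot1 and Meg3. Other list genes (Jpx, Snhg3, Snhg20, Clk1, Srsf5, Nktr, Pnisr, Sf3b1, Pnn) were named after their values were seen. A few genes of these lists are not reported here.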

Additional observations from a re-analysis of the deposited data

Results flagged for a closer look

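The difference between the OIR differences (Casp1 KO minus WT, log2) passed edgeR's adjusted p of 0.05 for 8 of the 10 RNAs. It was -1.14 for Meg3, -1.69 for Kcnq1ot1, -1.09 for Snhg11, -0.998 for Mir124a-1hg, -2.12 for Gm38609, 1.63 for Gm34755, -1.54 for A930013F10Rik and -0.59 for Malat1. The rule that chose the RNAs used this contrast, so the count of 8 describes the choice and is no test, and the values are descriptions. From the spread of the libraries the SE of this difference was 0.510 for Meg3, 0.565 for Snhg11 and 0.352 for Malat1, against 0.297 for Kcnq1ot1 and 0.330 for Gm38609. Without WT OIR replicate 3 the values were -1.49 for Meg3, -1.92 for Kcnq1ot1, -1.47 for Snhg11, -1.29 for Mir124a-1hg, -2.20 for Gm38609, 1.502 for Gm34755, -1.75 for A930013F10Rik and -0.85 for Malat1.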

How the results depend on the processing

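Of the 10 RNAs, the number called for Casp1 KO minus WT was 2, with 1 by DESeq2, 0 with filterByExpr, 0 with a minimum of 10 reads per library, and 0 to 7 with a library left out. It was 0 without WT OIR replicate 1 or Casp1 KO normoxia replicate 3, 1 without WT OIR replicate 2 or Casp1 KO OIR replicate 1, and 7 without WT OIR replicate 3. The exact permutation test, weak where the genotype difference changes sign between treatments, found 0, and 0 to 1 with a library left out. The number called in WT OIR was 5, with 7 by DESeq2 size factors or library size alone and 5 to 9 with a library left out (9 without WT OIR replicate 3). In Casp1 KO OIR it was 6 (5 to 6), and for the difference of differences 8 (7 to 8), with 4 by DESeq2. The replicate number as a block left these counts at 2, 5, 6 and 8, and since same-numbered libraries did not deviate together it marks no shared source.

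Near 0, signs turned: for Casp1 KO minus WT, Mir124a-1hg gave -0.0016 with library size alone and Miat -0.0022 with the newer quasi-likelihood method, and for WT OIR Malat1 gave -0.068 and Miat 0.0024 with the block. With a library left out, Casp1 KO minus WT ranged from -0.18 to 0.20 for Miat, -0.27 to 0.026 for Meg3, -0.24 to 0.087 for Snhg11, -0.061 to 0.17 for Kcnq1ot1 and -0.14 to 0.12 for Mir124a-1hg, and WT OIR from -0.40 to 0.34 for Miat, -0.21 to 0.27 for Malat1 and -0.090 to 0.50 for Meg3. Over all genes, filterByExpr moved the calls from 117 to 38, from 886 to 586 in WT OIR and from 277 to 139 for the difference of differences, a minimum of 10 reads per library to 35 and 152 for the first and last, and a joint fit from 1038 to 642 in Casp1 KO OIR. Except where a library was left out, the cause was not tested. Neat1 and Miat had under 50 reads in several libraries, and the part of depth in their spread was not tested.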
